A study of Ocimum americanum with 4 samples.

Results

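The 195 unigenes described here carry the annotation of kinases that relay calcium and stress signals in plant cells. They were selected from the 42816 assembled unigenes of *Ocimum americanum* var. *pilosum*, a chilling-sensitive basil, by their Swiss-Prot description, which had to contain calcium-dependent protein kinase, calmodulin-dependent, CBL-interacting or mitogen-activated protein kinase. By the same descriptions they comprise 62 calcium-dependent protein kinases (CPK), 2 calcium- and calmodulin-dependent kinases, 42 CBL-interacting protein kinases (CIPK), 36 MAP kinase kinase kinases (MAP3K), 8 MAP kinase kinases (MAP2K), 44 MAP kinases (MAPK) and 1 MAP kinase-binding protein, which is not a kinase and was too low to be tested. No expression value was used in the selection.

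A rise of free calcium in the cytosol is among the earliest events in a chilled plant cell. It is read by the CPK, the calcium- and calmodulin-dependent kinases and the CIPK. A CPK carries its own calcium-binding hands next to the kinase domain, whereas a CIPK is switched on by a separate calcium sensor, a calcineurin B-like protein (CBL). In a MAP kinase cascade, a MAP3K phosphorylates a MAP2K, which phosphorylates a MAPK, and in *Arabidopsis* the cascade from MEKK1 through MKK2 to MPK4 and the kinases MPK3 and MPK6 are known from cold signalling. All of these enzymes are controlled largely by phosphorylation, calcium or both, so the transcript levels given here do not measure kinase activity.

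Leaves were taken from 30-day-old plants of the variety pilosum, raised at 21 °C with no genetic change stated, and the chilled plants were placed at 4 °C for 12 h before harvest. Untreated and chilled leaves were each represented by 2 biological replicates, called control 1, control 2, chilling 1 and chilling 2. RNA-seq gave an FPKM value (fragments counted per length of unigene and per number of mapped reads) for each unigene in each library. Per the study's methods, control plants were kept meanwhile under conditions that differed only in temperature, and biological replicates were collected together. The hour of harvest is not given in the sources used here, and a part of the time of day in the results was not tested. The labels' growth temperature is used here, the methods give a slightly higher one, and the number of plants per library is not stated.

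FPKM values were transformed to log2(FPKM + 1) and compared with limma for the 33036 unigenes with a mean of at least 1 FPKM. Throughout, a unigene that rose or fell had an adjusted p of at most 0.01 over all tested unigenes and mean FPKM values at least 2-fold apart. The log2 changes are chilling minus control on that scale, which understates the change of unigenes near 1 FPKM, each is given ± the standard error of the fit, and every ratio is one of mean FPKM. Of all tested unigenes, 3917 (11.9%) rose and 4548 (13.8%) fell, 25.6% in either direction, and the median log2 change was -0.00. The FPKM values sum to 874864 to 875599 in the control libraries and to 772255 to 773457 in the chilling libraries. When each library was rescaled to a common sum (TPM), the median log2 change of all tested unigenes moved to 0.15, with 5051 higher and 3677 lower, so that the share of calls that were higher went from 46.3% to 57.9%. Among leaf markers, 15 of 17 chlorophyll a-b binding protein unigenes fell, their summed level going from 27770 and 27891 FPKM to 4888 and 4910 FPKM, whereas the single small subunit of Rubisco had 13824 and 13829 FPKM in the control and 10256 and 10265 FPKM after chilling. The guard cell anion channel SLAC1 fell from 9.93 and 9.67 FPKM to 4.57 and 4.93 FPKM, a call lost with TPM rescaling, and no unigene carried the description of MYB60 or SUC2. None of 5 unigenes found by the names of basil trichome enzymes was called. The name of eugenol synthase also caught scarce isoeugenol synthase unigenes, with higher means after chilling. Eugenol synthase had 72.73 and 74.17 FPKM in the control and 44.25 and 44.36 FPKM after chilling. Chavicol O-methyltransferase had 257 and 248 FPKM, then 190 and 190 FPKM. Both were lower by less than 2-fold, while R-linalool synthase overlapped between treatments. The part of these markers in the results was not tested, and in whole leaves fewer cells of a type and less RNA per cell cannot be told apart.

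Of the 195 members, 158 passed the filter of 1 FPKM and 37 did not. Among the 158, 27 (17.1%) rose and 18 (11.4%) fell, beside 11.9% and 13.8% of all tested unigenes, and the median log2 change of the members was 0.12. Another 22 members were higher and 13 lower with an adjusted p of at most 0.01 from limma but less than 2-fold apart, and in all 113 tested members were not called. Of the 45 called members, 13 lay under 1 FPKM in at least 1 library. These 13 passed the filter of 1 FPKM only through the treatment in which they were higher. Their p-values are therefore no separate support for a change. The same holds below for any unigene with a mean under 1 FPKM in either treatment. After TPM rescaling, 34 members were called higher and 15 lower, with a median log2 change of 0.29, and the share of calls that were higher moved from 60.0% to 69.4%. These counts depend on having 2 libraries per treatment: 12, 11, 10 and 9 members were called higher without control 1, control 2, chilling 1 and chilling 2, and 9, 9, 7 and 7 lower. In all 4 of these fits 14 members kept their call, 20 did so in none, and 11 in 1 to 3. The 14 are pointed out below as keeping their calls, and each of the other 31 called members lost its call without at least 1 library. Among members with a mean of at least 10 FPKM, 8 of 68 (11.8%) rose and 8 (11.8%) fell, beside 10.4% and 11.2% of all unigenes at that level. Between 1 and 10 FPKM, 19 of 90 members (21.1%) rose and 10 (11.1%) fell, beside 12.8% and 15.4% of all unigenes. The summed level of all members was 2426 and 2429 FPKM in the control and 2624 and 2660 FPKM after chilling, a ratio of 1.09.

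**Figure D1:**
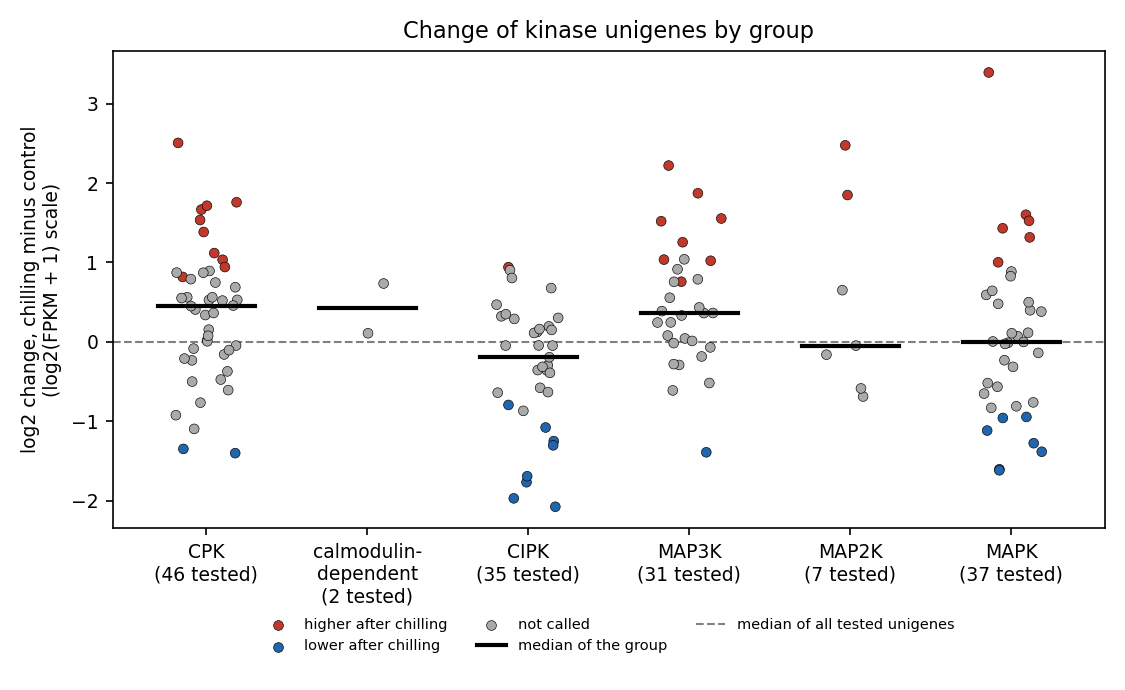
Each point is a tested kinase unigene, placed on the vertical axis by its log2 change (chilling minus control, log2(FPKM + 1) scale) and on the horizontal axis by its group; the bar is the group median and the dashed line the median of all tested unigenes. CPK (median 0.45) and MAP3K (0.36) lie mostly above the line and CIPK (-0.19) mostly below, and with TPM rescaling the medians of CPK, MAP3K and CIPK are 0.61, 0.54 and -0.02 while that of MAP2K changes sign.

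Calls among the CPK and MAP3K were mostly rises and those among the CIPK mostly falls, which TPM rescaling did not turn. Of 46 tested CPK, 10 rose and 2 fell, with a median log2 change of 0.45 and a ratio of summed FPKM of 1.501. Of 35 tested CIPK, 1 rose and 8 fell, with a median of -0.19 and a ratio of 0.826. Along the MAP kinase cascade, 8 of 31 tested MAP3K rose and 1 fell (median 0.36), 2 of 7 tested MAP2K rose (median -0.05), and 6 of 37 tested MAPK rose while 7 fell (median -0.00). In either direction 26.1% of tested CPK, 25.7% of CIPK, 29.0% of MAP3K, 28.6% of MAP2K and 35.1% of MAPK were called, beside 25.6% of all tested unigenes. By direction, 21.7% of CPK, 2.86% of CIPK, 25.8% of MAP3K and 16.2% of MAPK rose, beside 11.9%, and 4.35%, 22.9%, 3.23% and 18.9% fell, beside 13.8%. With TPM rescaling the calls became 13 higher and 1 lower for CPK, 2 and 7 for CIPK, 8 and 1 for MAP3K, 2 and 0 for MAP2K and 8 and 6 for MAPK, and the median log2 change of MAP2K turned from -0.05 to 0.13 and that of MAPK from -0.00 to 0.16. Leaving out single libraries left 5 CPK higher each time and none lower, 3 to 5 CIPK lower and none higher, 2 to 3 MAP3K higher, 1 to 2 MAP2K higher, and 1 to 2 MAPK higher and 4 to 5 lower. Differences between the families were not tested.

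Many members are near copies by annotation. The 195 unigenes matched 93 Swiss-Prot proteins, and 151 of them shared their protein with at least 1 other member, so that related unigenes may be fragments, isoforms or paralogs, and reads may be divided among them. No protein had both a member that rose and a member that fell. When each protein was counted once, by its most abundant unigene, 14 rose and 10 fell. In all, 32 members had their best nr match in a grass, 14 of which were tested, and their summed level was low, 50.2 and 54.0 FPKM in the control and 35.0 and 32.9 FPKM after chilling. Their highest mean over the 4 libraries was 5.62 FPKM, 1 rose and 3 fell, and their median log2 change of -0.66 stood beside -0.48 for all 2016 tested unigenes with a grass match, of which 3.62% rose and 15.3% fell. The 144 tested members without such a match had a median of 0.20, with 26 higher and 15 lower. Whether the grass-matched unigenes belong to *O. americanum* was not tested.

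**Figure D2:**
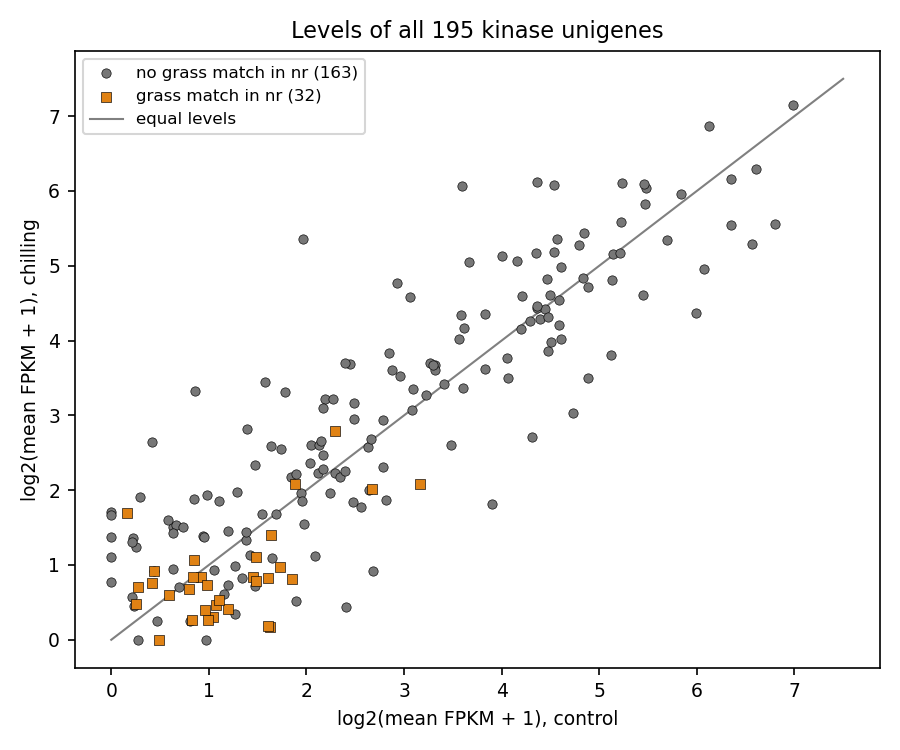
Each of the 195 members is placed by log2(mean FPKM + 1) in the control (horizontal axis) and after chilling (vertical axis), with the 32 members whose best nr match is a grass protein as squares. Points above the line of equal levels were higher after chilling; the grass-matched members lie in the lower left, with no mean over the 4 libraries above 5.62 FPKM.

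Among the CPK, the member with the largest log2 change was matched to CPK28, which in *Arabidopsis* restrains immune signalling and takes part in stem growth. CPK28 (Ob_34365) had 1.22 and 0.4 FPKM in the control and 9.28 and 8.74 FPKM after chilling. Both chilling libraries lay far above both controls, with a ratio of 11.1 and a log2 change of 2.50 ± 0.24 (limma adjusted p = 0.000154). CPK33 (Ob_21776), known in *Arabidopsis* for phosphorylating the flowering regulator FD, had 18.7 and 20.5 FPKM in the control and 69.03 and 68.04 FPKM after chilling. Its groups did not overlap, and the ratio of 3.499 went with a log2 change of 1.76 ± 0.055 (limma adjusted p = 9.06e-07). CPK33 was the most abundant CPK that rose, and it kept its call whichever library was left out.

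CPK16 (Ob_34364) and CPK30 (Ob_25924) rose from a moderate level and also kept their calls without any single library. CPK16 had 11.2 and 12.2 FPKM in the control and 31.9 and 32.4 FPKM after chilling, a ratio of 2.74 and a log2 change of 1.38 ± 0.067 (limma adjusted p = 6.55e-06). CPK30, a kinase that in *Arabidopsis* links calcium to the nitrate response, had 14.6 and 15.6 FPKM in the control and 33.02 and 34.8 FPKM after chilling, a ratio of 2.25 and a log2 change of 1.12 ± 0.062 (limma adjusted p = 1.27e-05). In neither did a control library reach a chilling library. Unlike these, several other CPK that rose were low throughout. A unigene matched to the soybean kinase SK5 (Ob_15033) had 2.58 and 2.27 FPKM in the control and 8.7 and 9.12 FPKM after chilling and one matched to CPK1 (Ob_11406), an *Arabidopsis* kinase of immune responses, had 3.08 and 4.03 FPKM in the control and 7.9 and 8.66 FPKM after chilling. Their ratios were 3.67 and 2.33, with log2 changes of 1.53 ± 0.13 and 1.03 ± 0.15. Also among the CPK that rose were CPK9 (Ob_13065) and CPK10 (Ob_14409), which fall outside the rule for named members and were named after their values were seen. CPK9 had 3.65 and 4.03 FPKM in the control and 8.35 and 8.23 FPKM after chilling, and CPK10 had 2.69 and 1.98 FPKM in the control and 4.55 and 5.15 FPKM after chilling, both with chilling libraries above both controls.

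Some CPK had values above 0 only in chilled leaves. CPK24 (Ob_42348), known from *Arabidopsis* pollen tubes, was listed at 0 FPKM in control 1 and control 2, and at 2.3 and 2.26 FPKM after chilling (log2 change 1.71 ± 0.21, limma adjusted p = 0.000487), and it kept its call whichever library was left out. A second CPK1 unigene (Ob_05223) was likewise listed at 0 in the control and at 1.89 and 2.48 FPKM after chilling (log2 change 1.67 ± 0.22, limma adjusted p = 0.000758). A value of 0 says only that no fragment was assigned, so no ratio is given. Both unigenes passed the filter of 1 FPKM through their chilling values alone, and the fits without a library used the same filter. Their p-values and the kept call of CPK24 are therefore no separate support for a rise. Below the filter, and therefore untested, CPK2 (Ob_05224) was listed at 0 in both controls with 1.0 and 1.32 FPKM after chilling, and CPK25 (Ob_41699) at 0 with 1.61 and 1.58 FPKM.

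Both CPK that fell were scarce. CPK29 (Ob_04049) had 3.45 and 1.97 FPKM in the control and 0.58 and 0.29 FPKM after chilling, 6.23-fold lower, with a log2 change of -1.35 ± 0.26 (limma adjusted p = 0.00435). CPK5 (Ob_04124), whose best nr match is a rice protein, had 2.95 and 1.21 FPKM in the control and 0 and 0.25 FPKM after chilling, a log2 change of -1.40 ± 0.32 (limma adjusted p = 0.0091). Neither call was kept in any of the 4 fits that left out a library, and that of CPK5 Ob_04124 was lost with TPM rescaling (limma adjusted p = 0.0103). An abundant CPK5 unigene (Ob_36379) differed the other way, with 44.7 and 42.8 FPKM in the control and 64.3 and 65.8 FPKM after chilling, a ratio of 1.49 that was under 2-fold and not called. CPK5 is known in *Arabidopsis* for activating the NADPH oxidase RBOHD.

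The most abundant CPK were higher after chilling without reaching 2-fold. CPK13 (Ob_35881), which in *Arabidopsis* acts on guard cell potassium channels, had 67.9 and 69.5 FPKM in the control and 114 and 118 FPKM after chilling, a ratio of 1.69 and a log2 change of 0.75 ± 0.032 (limma adjusted p = 3.58e-06). CPK21 (Ob_32598), an activator of the anion channels SLAC1 and SLAH3 in *Arabidopsis*, had 37.8 and 35.5 FPKM in the control and 67.8 and 67.8 FPKM after chilling, a ratio of 1.85 and a log2 change of 0.87 ± 0.044 (limma adjusted p = 7.65e-06). In each, both chilling libraries lay above both controls by far more than replicates differed. Another SK5 unigene (Ob_33568) had 19.1 and 20.2 FPKM in the control and 20.9 and 20.6 FPKM after chilling, a ratio of 1.06 (limma adjusted p = 0.319).

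The pair of calcium- and calmodulin-dependent kinases matched CCaMK of *Lotus japonicus*, the kinase that decodes calcium oscillations in root symbioses. The first (Ob_24235) had 3.29 and 3.39 FPKM in the control and 3.4 and 3.97 FPKM after chilling, and a log2 change of 0.11 ± 0.15 (limma adjusted p = 0.55). The second (Ob_29339) had 6.65 and 6.01 FPKM in the control and 11.5 and 10.9 FPKM after chilling, a ratio of 1.77 and a log2 change of 0.73 ± 0.10 (limma adjusted p = 0.000875), but its Swiss-Prot match had an expectation value of only 5e-06. Neither was called by limma at the thresholds used, and 1 had an unadjusted p under 0.05.

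**Figure D3:**
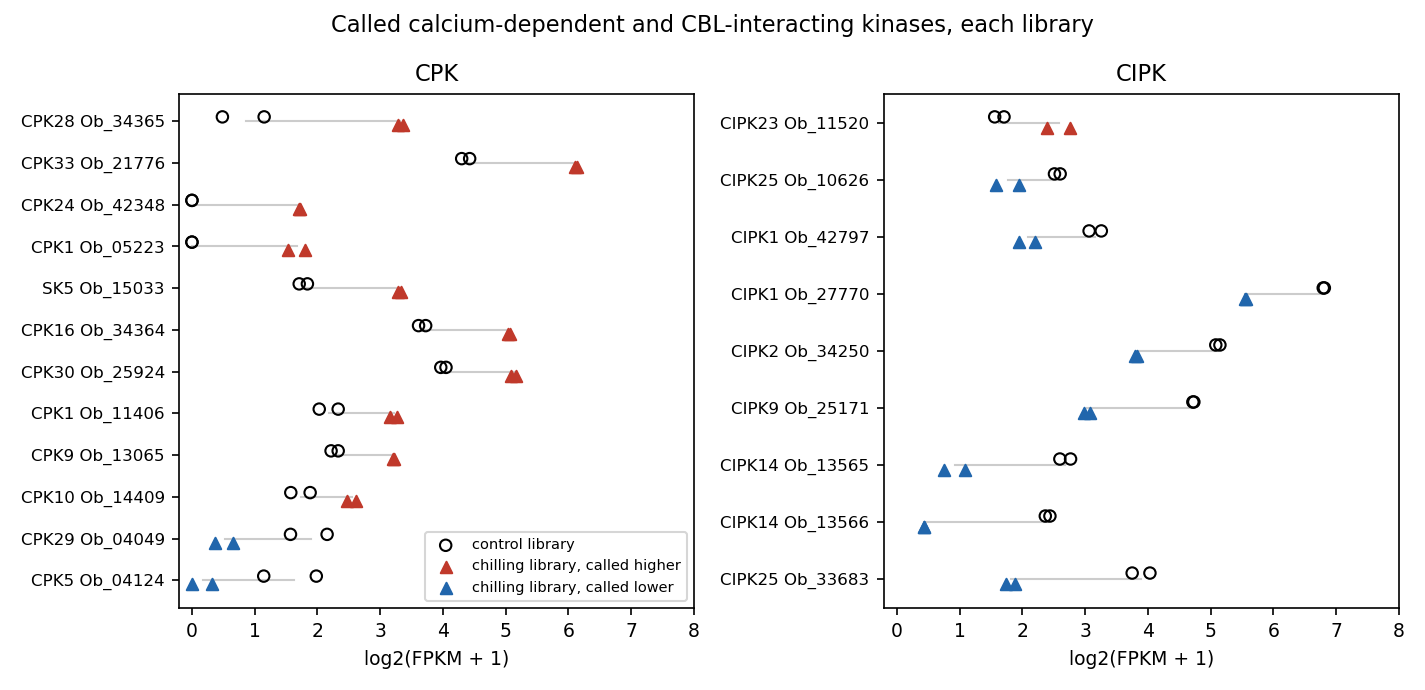
For each CPK (left) and CIPK (right) that was called, the horizontal axis gives log2(FPKM + 1) in each library: open circles are the 2 control libraries, triangles the 2 chilling libraries (red higher, blue lower), and the grey line joins the group means. In the CPK panel 10 unigenes have both triangles to the right of the circles and 2 to the left, and in the CIPK panel 8 of 9 have them to the left; with TPM rescaling the counts are 13 and 1 for CPK and 2 higher and 7 lower for CIPK.

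Most CIPK calls were falls, and they included abundant unigenes. CIPK1 (Ob_27770), which in *Arabidopsis* works with CBL1 and CBL9 in osmotic and abscisic acid responses, had 112 and 110.2 FPKM in the control and 45.6 and 46.4 FPKM after chilling. The chilling libraries were 2.41-fold lower than the controls, with no overlap, a log2 change of -1.25 ± 0.032 (limma adjusted p = 3.48e-07). CIPK1 was the most abundant of the 18 members that fell. CIPK9 (Ob_25171), a kinase of potassium homeostasis in *Arabidopsis*, had 25.6 and 25.3 FPKM in the control and 6.94 and 7.45 FPKM after chilling, 3.54-fold lower, with a log2 change of -1.69 ± 0.075 (limma adjusted p = 4.40e-06). CIPK2 (Ob_34250) had 34.5 and 32.9 FPKM in the control and 12.9 and 13.2 FPKM after chilling, 2.58-fold lower, with a log2 change of -1.30 ± 0.060 (limma adjusted p = 5.07e-06). These 3 kept their calls whichever library was left out. A second CIPK2 unigene (Ob_34251) had nearly level values, 23.6 and 22.5 FPKM in the control and 22.6 and 22.01 FPKM after chilling, and was not called. The scarcer one left (Ob_32115) had 4.57 and 6.18 FPKM in the control and 2.89 and 3.23 FPKM after chilling and was not called either.

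The other CIPK that fell were lower in abundance. CIPK25 (Ob_33683) had the largest log2 change downward of any member, with 15.4 and 12.5 FPKM in the control and 2.35 and 2.7 FPKM after chilling, 5.52-fold lower and a log2 change of -2.08 ± 0.14 (limma adjusted p = 3.07e-05). Its companion matched to the same kinase (Ob_10626) had 5.08 and 4.71 FPKM in the control and 2.87 and 1.98 FPKM after chilling, 2.02-fold lower, a call lost with TPM rescaling. A pair of CIPK14 unigenes fell together: Ob_13566 had 4.16 and 4.43 FPKM in the control and 0.35 and 0.35 FPKM after chilling, and Ob_13565 had 5.82 and 5.06 FPKM in the control and 0.68 and 1.12 FPKM after chilling. They were 12.3-fold and 6.04-fold lower, with no overlap between treatments, although the match of Ob_13565 was weak, at an expectation value of 6e-15. Finally a CIPK1 unigene whose match and nr hit are both rice proteins (Ob_42797) had 7.37 and 8.58 FPKM in the control and 2.88 and 3.63 FPKM after chilling, 2.45-fold lower.

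CIPK23 (Ob_11520) was the only CIPK that rose, and in *Arabidopsis* it activates the potassium channel AKT1 and modifies the nitrate sensor NRT1.1. It had 2.27 and 1.95 FPKM in the control and 5.76 and 4.25 FPKM after chilling, a ratio of 2.37 and a log2 change of 0.94 ± 0.18 (limma adjusted p = 0.00411). The far more abundant CIPK23 unigene (Ob_24829) had 56.8 and 55.5 FPKM in the control and 59.8 and 62.8 FPKM after chilling, so the rise concerned a minor transcript, and its call was lost in each of the 4 fits that left out a library. CIPK24 (Ob_24327), known as SOS2 in the salt response and named after its values were seen, had 16.6 and 17.1 FPKM in the control and 32.3 and 32.6 FPKM after chilling, a ratio of 1.92 just under the 2-fold threshold (log2 change 0.90 ± 0.055).

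Apart from CIPK1, the most abundant CIPK unigenes were not called. CIPK3 (Ob_33135), linked in *Arabidopsis* to abscisic acid and cold responses, was the most abundant of all members, with 128 and 124 FPKM in the control and 141 and 141 FPKM after chilling, a ratio of 1.12 and a log2 change of 0.16 ± 0.028 (limma adjusted p = 0.00248). A second CIPK3 unigene (Ob_21815) went the other way with 95.7 and 97.2 FPKM in the control and 76.8 and 77.8 FPKM after chilling, 1.25-fold lower (log2 change -0.32 ± 0.029, limma adjusted p = 0.00014). The 3 unigenes matched to the same CIPK3 protein summed to 228 and 226 FPKM in the control and to 224 and 226 FPKM after chilling. In more digits the sums were 228.04 and 226.03 FPKM in the control and 224.31 and 225.59 FPKM after chilling, so that both chilling sums lay slightly below both controls. CIPK6 (Ob_33778), which acts on the potassium channel AKT2 in *Arabidopsis*, had 82.1 and 78.99 FPKM in the control and 67.4 and 73.2 FPKM after chilling, 1.15-fold lower on average and not called.

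At the top of the MAP kinase cascade, 8 MAP3K rose and 1 fell. Of these, 4 were matched to NPK1, a tobacco kinase of cell division and oxidative stress signalling. NPK1 Ob_13323 had 0.34 and 0.34 FPKM in the control and 4.78 and 5.74 FPKM after chilling, a ratio of 15.5 and a log2 change of 2.22 ± 0.18 (limma adjusted p = 8.15e-05). NPK1 Ob_21966 had 2.0 and 1.97 FPKM in the control and 9.81 and 10.03 FPKM after chilling, a ratio of 4.997 and a log2 change of 1.87 ± 0.12 (limma adjusted p = 2.86e-05). The remaining NPK1 unigenes that rose, Ob_21965 and Ob_12297, were scarce. Ob_21965 had 0.7 and 0.91 FPKM in the control and 2.83 and 2.56 FPKM after chilling, and Ob_12297 had 1.16 and 1.14 FPKM in the control and 2.75 and 2.52 FPKM after chilling, with ratios of 3.35 and 2.29. The protein was matched by 8 members in all, and the most abundant of them (Ob_36056), with 14.0 and 17.2 FPKM in the control and 13.5 and 11.7 FPKM after chilling, was not called.

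The most abundant MAP3K that rose was named after the slime mould kinase MkkA, although its nr match is a tomato kinase like ANP1. This unigene (Ob_32997) had 20.9 and 23.4 FPKM in the control and 68.3 and 65.3 FPKM after chilling, a ratio of 3.02 and a log2 change of 1.55 ± 0.064 (limma adjusted p = 3.01e-06). It was the only MAP3K that kept its call whichever library was left out. MEKK1, which in *Arabidopsis* heads the cold-activated cascade to MPK4, was the match of 9 members, of which 8 were tested and 2 rose. MEKK1 Ob_14613 had 5.29 and 3.65 FPKM in the control and 12.2 and 11.6 FPKM after chilling, a ratio of 2.66 and a log2 change of 1.25 ± 0.16 (limma adjusted p = 0.000593), and MEKK1 Ob_06096 had 0.4 and 0.59 FPKM in the control and 2.25 and 1.82 FPKM after chilling, a ratio of 4.11. A further MEKK1 unigene (Ob_34653) had lower values after chilling, 22.7 and 19.9 FPKM in the control and 12.9 and 14.3 FPKM after chilling, and was not called.

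YODA, the MAP3K of stomatal patterning in *Arabidopsis*, was the match of 9 members, all tested, and none was called by limma at the thresholds used, while 4 had an unadjusted p under 0.05, all higher. Its most abundant unigene (Ob_29171) had 36.3 and 36.2 FPKM in the control and 46.8 and 46.96 FPKM after chilling, a ratio of 1.29 and a log2 change of 0.36 ± 0.040 (limma adjusted p = 0.000316). A second (Ob_30695) had 22.9 and 22.6 FPKM in the control and 40.2 and 39.9 FPKM after chilling, a ratio of 1.76 and a log2 change of 0.79 ± 0.047 (limma adjusted p = 1.77e-05). Both were above the controls in both chilling libraries. A further 3 tested MAP3K carried the name of mammalian MAP3K12, a match that gives only the kinase type. The most abundant (Ob_24901) had 23.5 and 18.8 FPKM in the control and 25.9 and 28.8 FPKM after chilling and was not called. The others were scarce and have grass nr matches: Ob_08837, annotated like the ethylene regulator CTR1, had 0.23 and 0 FPKM in the control and 2.84 and 1.63 FPKM after chilling and rose (log2 change 1.52 ± 0.27, limma adjusted p = 0.00279), whereas Ob_40017 had 1.38 and 2.7 FPKM in the control and 0.28 and 0 FPKM after chilling and fell (log2 change -1.39 ± 0.29, limma adjusted p = 0.00578). Each passed the filter of 1 FPKM only through the treatment in which it was higher, so these p-values are no separate support.

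Only 8 unigenes were MAP2K, and 2 of the 7 tested rose; none fell, while 2 were lower at an unadjusted p under 0.05. MKK9 (Ob_28080), which in *Arabidopsis* activates MPK3 and MPK6 and promotes ethylene synthesis, had 10.9 and 11.2 FPKM in the control and 66.1 and 65.8 FPKM after chilling. The replicates lay close together and the treatments apart, with a ratio of 5.97 and a log2 change of 2.47 ± 0.050 (limma adjusted p = 1.28e-07). MKK2 (Ob_30242), the cold- and salt-activated MAP2K of *Arabidopsis*, had 7.33 and 5.84 FPKM in the control and 26.7 and 25.6 FPKM after chilling, a ratio of 3.98 and a log2 change of 1.85 ± 0.11 (limma adjusted p = 1.60e-05). A second MKK2 unigene (Ob_28041) had 21.9 and 22.5 FPKM in the control and 34.7 and 36.1 FPKM after chilling, a ratio of 1.595 (log2 change 0.65 ± 0.052, limma adjusted p = 7.06e-05). It was higher in both chilling libraries but under 2-fold, so of the MKK2 unigenes only Ob_30242 was called. MKK9 kept its call in all 4 fits that left out a library, and had the smallest adjusted p of all members.

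The other MAP2K were not called. MKK3 (Ob_32815), which in *Arabidopsis* feeds jasmonate signalling, had 37.99 and 34.4 FPKM in the control and 37.4 and 32.6 FPKM after chilling, and the groups overlapped (log2 change -0.05 ± 0.079, limma adjusted p = 0.617). MKK6 (Ob_23970), a kinase of cell plate formation, had 21.3 and 21.3 FPKM in the control and 20.1 and 17.9 FPKM after chilling (log2 change -0.16 ± 0.073, limma adjusted p = 0.0925). Both small differences changed sign with TPM rescaling, to 0.13 and 0.01 on the log2 scale. MKK5 (Ob_28469), an activator of MPK3 and MPK6 in *Arabidopsis* that was named after its values were seen, had 21.3 and 25.6 FPKM in the control and 14.6 and 15.8 FPKM after chilling, 1.54-fold lower (log2 change -0.59 ± 0.099, limma adjusted p = 0.00224), with both chilling libraries below both controls. MKK1 (Ob_00595), likewise named afterwards, had 2.02 and 1.56 FPKM in the control and 0.73 and 0.72 FPKM after chilling (limma adjusted p = 0.024). The summed MAP2K level went from 123 and 124 FPKM to 195 and 200 FPKM, a ratio of 1.60 that came mainly from MKK9 and MKK2.

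**Figure D4:**
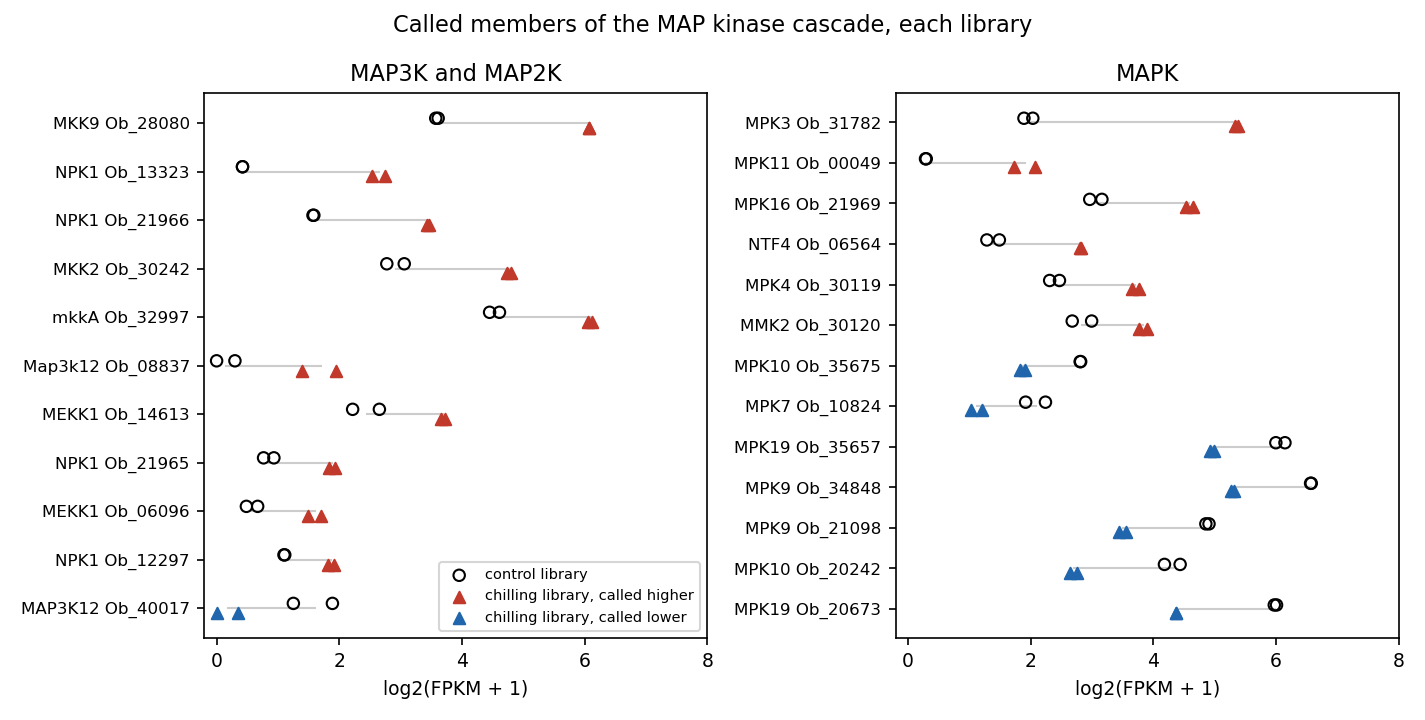
For each called member of the MAP kinase cascade, MAP3K and MAP2K on the left and MAPK on the right, the horizontal axis gives log2(FPKM + 1) in each library, with open circles for the 2 control and triangles for the 2 chilling libraries (red higher, blue lower) and a grey line between group means. MPK3 spans the widest gap, from 2.71 and 3.1 FPKM to 39.2 and 40.7 FPKM, while the MPK9 and MPK19 unigenes that fell start from 27.96 to 94.28 FPKM in the control.

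MPK3, a MAP kinase of defence and stress signalling that phosphorylates ICE1 in *Arabidopsis*, had the largest log2 change of all members. The MPK3 unigene (Ob_31782) had 3.1 and 2.71 FPKM in the control and 39.2 and 40.7 FPKM after chilling. The treatments were far apart, with a ratio of 13.8 and a log2 change of 3.39 ± 0.089 (limma adjusted p = 3.89e-07). It was the only MAPK that rose and kept its call whichever library was left out. Rises were also seen among unigenes matched to MPK4, the MAPK that follows MEKK1 and MKK2 in *Arabidopsis*, and to its relatives. Those that rose reached lower levels after chilling than MPK3. MPK4 and MMK2 were each the match of 3 members, all tested, of which 1 rose and none fell. The 3 MMK2 unigenes summed to 44.1 and 42.2 FPKM in the control and 55.5 and 60.0 FPKM after chilling. MPK4 (Ob_30119) had 3.96 and 4.54 FPKM in the control and 11.5 and 12.6 FPKM after chilling, a ratio of 2.84 and a log2 change of 1.32 ± 0.11 (limma adjusted p = 0.000101). MPK11 (Ob_00049), a close relative of MPK4, had 0.23 and 0.22 FPKM in the control and 2.3 and 3.18 FPKM after chilling, a ratio of 12.2 (log2 change 1.60 ± 0.22), and the alfalfa homolog MMK2 (Ob_30120) had 6.97 and 5.4 FPKM in the control and 12.7 and 13.96 FPKM after chilling, a ratio of 2.15 (log2 change 1.00 ± 0.13).

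NTF4 (Ob_06564), a tobacco kinase related to MPK6, had 1.44 and 1.81 FPKM in the control and 6.1 and 6.01 FPKM after chilling, a ratio of 3.73 and a log2 change of 1.43 ± 0.15 (limma adjusted p = 0.00029), but its nr match is a moss protein. The alfalfa kinase MMK1, also related to MPK6, was the match of the next unigenes, which were abundant and not called. MMK1 Ob_20007 had 41.9 and 43.8 FPKM in the control and 68.8 and 66.1 FPKM after chilling, a ratio of 1.57 (log2 change 0.64 ± 0.042, limma adjusted p = 2.72e-05), and MMK1 Ob_20006 had 29.2 and 26.4 FPKM in the control and 42.04 and 42.6 FPKM after chilling, a ratio of 1.52 (log2 change 0.59 ± 0.059, limma adjusted p = 0.000194). In both MMK1 unigenes the chilling libraries lay above the controls.

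Of the 7 MAPK that fell, 4 were matched to *Arabidopsis* kinases of another branch, in which the activation loop carries a TDY motif in place of TEY. MAPK matched to proteins of other species were not assigned to a branch, because no sequences were used. This branch was picked out after the values had been seen, so its counts are a description without a test. Among members with an *Arabidopsis* match it has 12, all tested, of which 1 rose and 4 fell, with a median log2 change of -0.59 and summed levels of 408 and 418 FPKM in the control and 255 and 259 FPKM after chilling. With TPM rescaling 3 rose and 3 fell and the median was -0.44. The other 6 MAPK with an *Arabidopsis* match had 3 that rose and 1 that fell, a median of 0.91 and much lower summed levels of 17.5 and 18.6 FPKM in the control and 63.8 and 67.7 FPKM after chilling. These small counts are to be read beside the 11.9% of all tested unigenes that rose and the 13.8% that fell without rescaling.

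MPK9 (Ob_34848), which in *Arabidopsis* acts in guard cells, was the most abundant MAPK in the control. It had 93.5 and 94.3 FPKM in the control and 37.5 and 38.9 FPKM after chilling, 2.46-fold lower, with a log2 change of -1.28 ± 0.037 (limma adjusted p = 5.93e-07). The MPK9 unigene Ob_21098 had 27.96 and 29.01 FPKM in the control and 9.9 and 10.7 FPKM after chilling, 2.77-fold lower (log2 change -1.38 ± 0.070, limma adjusted p = 8.12e-06). Another MPK9 unigene (Ob_32248) had 22.99 and 23.8 FPKM in the control and 29.9 and 31.6 FPKM after chilling and was not called. MPK19 (Ob_20673) had 61.7 and 63.4 FPKM in the control and 19.7 and 19.7 FPKM after chilling, 3.18-fold lower, with a log2 change of -1.62 ± 0.044 (limma adjusted p = 4.81e-07), although its match was weak at an expectation value of 4e-15. MPK19 Ob_35657 had 62.9 and 69.8 FPKM in the control and 29.2 and 30.8 FPKM after chilling, 2.21-fold lower (log2 change -1.12 ± 0.060, limma adjusted p = 1.07e-05). These falls were kept whichever library was left out, while with TPM rescaling MPK19 Ob_35657 was no longer 2-fold apart. Another MPK19 unigene (Ob_29258) had 19.99 and 18.8 FPKM in the control and 35.2 and 35.1 FPKM after chilling and was not called.

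MPK17 (Ob_21097), linked to peroxisome division in *Arabidopsis*, had 80.7 and 80.8 FPKM in the control and 45.3 and 45.8 FPKM after chilling, 1.77-fold lower (log2 change -0.81 ± 0.033, limma adjusted p = 3.08e-06), short of 2-fold and with a match at 1e-17. The single one of these 12 that rose was MPK16 (Ob_21969), with 6.8 and 7.95 FPKM in the control and 23.9 and 22.2 FPKM after chilling, a ratio of 3.12 and a log2 change of 1.52 ± 0.096 (limma adjusted p = 2.24e-05). The MAPK matched to proteins of other species numbered 26, with 19 tested, of which 2 rose and 2 fell, at a median log2 change of -0.00. Both falls were among the 5 members matched to the rice kinase MPK10. MPK10 Ob_20242 had 17.1 and 20.7 FPKM in the control and 5.27 and 5.77 FPKM after chilling, 3.42-fold lower (log2 change -1.61 ± 0.11, limma adjusted p = 3.89e-05), and MPK10 Ob_35675 had 6.0 and 6.04 FPKM in the control and 2.74 and 2.55 FPKM after chilling, 2.28-fold lower (log2 change -0.95 ± 0.13). MPK7 (Ob_10824), the remaining MAPK that fell, had 2.78 and 3.73 FPKM in the control and 1.04 and 1.32 FPKM after chilling, 2.76-fold lower (log2 change -0.96 ± 0.20, limma adjusted p = 0.00565).

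The genes around these kinases were listed by their Swiss-Prot names: channels that admit calcium, pumps and exchangers that remove it, CBL sensors, related kinases, NADPH oxidases, phosphatases and known targets. Of 143 tested unigenes in these lists 26 (18.2%) rose and 11 (7.69%) fell, with a median log2 change of 0.22, and the 25.9% called in either direction stood beside 25.6% of all tested unigenes (11.9% higher, 13.8% lower). Single lists below hold 7 to 43 tested unigenes, and their counts are to be read beside those shares. Calcium channels made up 13 of the 26 rises. Of 43 tested unigenes for cyclic nucleotide-gated channels (CNGC), glutamate receptor-like channels and the vacuolar channel TPC1, 13 rose and 2 fell, with a median log2 change of 0.49, and 5 to 9 were called higher and 1 lower when single libraries were left out. CNGC15 (Ob_19554) had 1.69 and 1.66 FPKM in the control and 22.6 and 25.1 FPKM after chilling, a ratio of 14.3 (log2 change 3.22 ± 0.11, limma adjusted p = 1.21e-06). TPC1B (Ob_15101) had 3.0 and 3.5 FPKM in the control and 13.5 and 10.9 FPKM after chilling, a ratio of 3.74. A more abundant TPC1B unigene (Ob_22675) had 39.8 and 44.4 FPKM in the control and 37.2 and 37.8 FPKM after chilling and was not called. In the opposite direction, CNGC2 (Ob_28411), a channel of immune calcium signals, had 49.98 and 51.3 FPKM in the control and 22.97 and 22.2 FPKM after chilling, 2.24-fold lower and under 2-fold with TPM rescaling, and another CNGC15 unigene (Ob_18759) had 3.54 and 4.95 FPKM in the control and 0.76 and 0.56 FPKM after chilling, 6.43-fold lower. A more abundant CNGC2 unigene (Ob_34588) differed the other way from Ob_28411. It had 48.96 and 47.04 FPKM in the control and 68.2 and 67.8 FPKM after chilling, a ratio of 1.42, and was not called. The most abundant channel, CNGC1 (Ob_32106), had 93.95 and 96.97 FPKM in the control and 94.0 and 90.6 FPKM after chilling, with overlapping groups. The rises included glutamate receptor-like channels, which were picked out after the values were seen, and no separate share was worked out for them. Some share a match: GLR3.3 Ob_21101 and Ob_21100 rose, with ratios of 3.34 and 2.48, and may be pieces of a single gene. GLR3.3 Ob_21102 and Ob_36318 had ratios of 1.05 and 0.97 and were not called.

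Of 31 tested calcium pumps and exchangers, 5 rose and none fell by limma (median log2 change 0.13), with 5 lower at an unadjusted p under 0.05, and 1 to 3 were called higher when single libraries were left out. ACA2 (Ob_33011), a calcium pump of the endoplasmic reticulum in *Arabidopsis*, had 2.0 and 2.15 FPKM in the control and 19.4 and 20.4 FPKM after chilling, a ratio of 9.61 (log2 change 2.77 ± 0.11, limma adjusted p = 2.15e-06). ACA13 (Ob_27356) had 3.92 and 4.68 FPKM in the control and 12.5 and 12.5 FPKM after chilling, a ratio of 2.91. The vacuolar exchanger CAX3 (Ob_29074), the most abundant unigene of the list, had 105 and 104 FPKM in the control and 70.3 and 71.3 FPKM after chilling and was not called. ECA1 (Ob_36681), another pump of the endoplasmic reticulum, was nearly as abundant and rose, with 55.2 and 48.9 FPKM in the control and 120.03 and 115 FPKM after chilling, and was named after its values were seen.

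The CBL sensors, which switch on the CIPK, showed 1 rise and 1 fall among 10 tested, with a median log2 change of 0.08. Without control 1 or control 2, 1 was called higher and none lower, without chilling 1 none higher and 1 lower, and without chilling 2 none. CBL3 (Ob_09187) had 8.03 and 9.92 FPKM in the control and 22.1 and 23.6 FPKM after chilling, a ratio of 2.55 (log2 change 1.26 ± 0.11, limma adjusted p = 8.83e-05), with a match at 5e-12. CBL4 (Ob_25132), known as SOS3 in the salt response, had 9.77 and 9.99 FPKM in the control and 2.89 and 2.14 FPKM after chilling, 3.93-fold lower (log2 change -1.64 ± 0.15, limma adjusted p = 0.000119). The most abundant sensor, a second CBL3 unigene (Ob_20461), had 98.2 and 92.6 FPKM in the control and 94.4 and 96.1 FPKM after chilling, with overlapping groups. Of 12 tested CDPK-related kinases none was called by limma at the thresholds used, while 7 were higher and 2 lower at an unadjusted p under 0.05, and the median log2 change was 0.24. The most abundant of them, CRK1 (Ob_27862), had 77.4 and 77.5 FPKM in the control and 146 and 149 FPKM after chilling, a ratio of 1.91. Of 12 tested SnRK2 kinases, which act in abscisic acid and osmotic signalling, 2 fell and none rose by limma, with 1 higher at an unadjusted p under 0.05 (median log2 change -0.22), and 1 fall was left without control 1, chilling 1 or chilling 2. SAPK2 (Ob_20812) had 75.02 and 77.4 FPKM in the control and 30.7 and 31.5 FPKM after chilling, 2.45-fold lower (log2 change -1.27 ± 0.040, limma adjusted p = 8.94e-07), whereas SAPK10 (Ob_33930) had 73.5 and 76.3 FPKM in the control and 58.1 and 59.9 FPKM after chilling and was not called. The other fall was of a scarce SAPK2 unigene (Ob_38690) whose best nr match is a rice protein. It had 5.44 and 3.77 FPKM in the control and 1.19 and 1.71 FPKM after chilling, 3.18-fold lower.

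**Figure D5:**
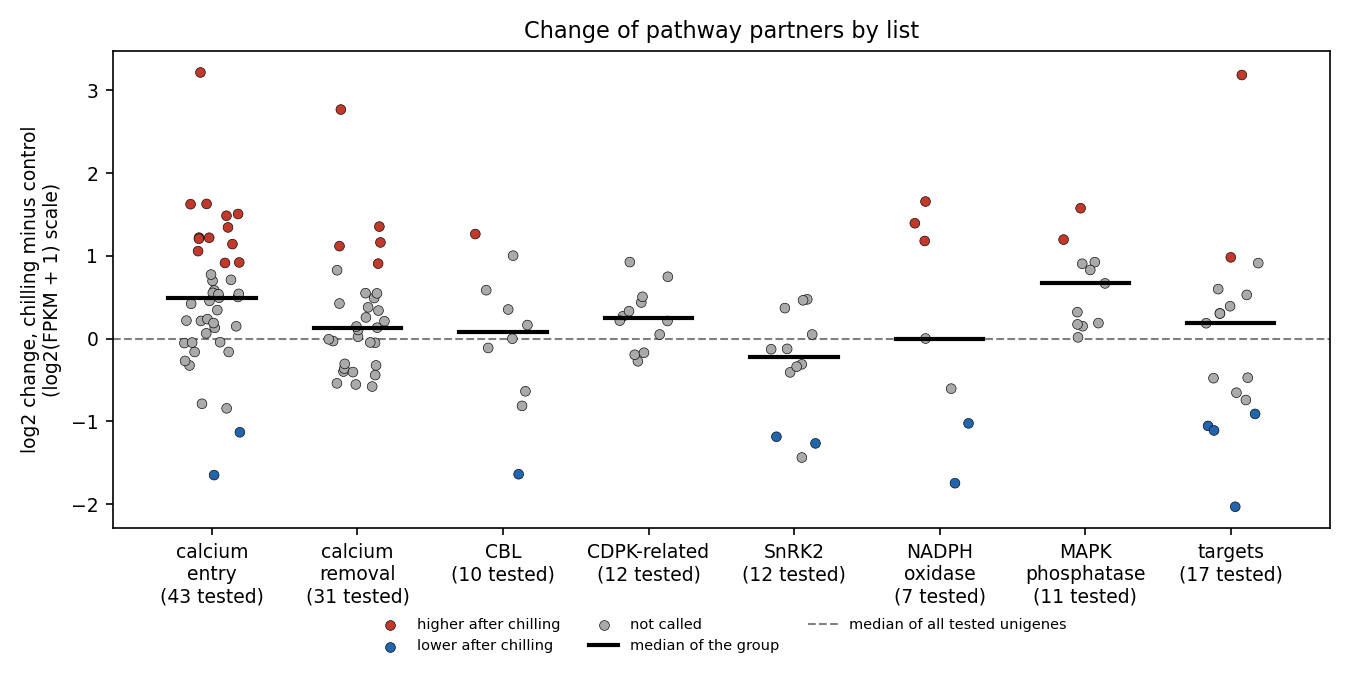
Each point is a tested unigene of a pathway list, by list on the horizontal axis and by log2 change (chilling minus control, log2(FPKM + 1) scale) on the vertical axis, with the list median as a bar and the median of all tested unigenes as a dashed line. The list of calcium entry has 13 unigenes called higher and 2 lower (15 and 1 with TPM rescaling), and that of SnRK2 none higher and 2 lower under both scalings.

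Downstream of the kinases, 3 of 7 tested NADPH oxidase unigenes rose and 2 fell, and none was called when any 1 library was left out, control 1, control 2, chilling 1 or chilling 2. RBOHC (Ob_16681) had 1.33 and 1.09 FPKM in the control and 5.51 and 6.43 FPKM after chilling, a ratio of 4.93, and RBOHF (Ob_25702) had 1.96 and 1.36 FPKM in the control and 5.99 and 5.9 FPKM after chilling, a ratio of 3.58. RBOHE (Ob_37127) had 20.2 and 14.4 FPKM in the control and 4.03 and 4.77 FPKM after chilling, 3.94-fold lower, and a second RBOHC unigene (Ob_06049) had 3.23 and 2.22 FPKM in the control and 0.82 and 0.81 FPKM after chilling, 3.34-fold lower. The remaining rise, named after its values were seen, was of a second RBOHE unigene (Ob_08562). It had 0.79 and 1.32 FPKM in the control and 3.42 and 3.82 FPKM after chilling, a ratio of 3.43. RBOHE and RBOHC thus each had a unigene that rose and another that fell. The most abundant oxidase unigene fell, and the next, RBOHC Ob_28517, was level, with 8.16 and 7.51 FPKM in the control and 8.29 and 7.4 FPKM after chilling. Scarcer unigenes included both rises and a fall. In the phosphatase list 2 of 11 tested unigenes rose (3 with rescaling by the median ratio and 5 with TPM), none fell or was lower at an unadjusted p under 0.05, and the median log2 change was 0.67. Without control 2, chilling 1 or chilling 2, 1 was called higher. Both rises were matched to DSP8, whose *Arabidopsis* counterpart is known as a phosphatidylglycerophosphate phosphatase of lipid metabolism. DSP8 Ob_25556 had 26.3 and 28.2 FPKM in the control and 83.5 and 82.8 FPKM after chilling, a ratio of 3.05 (log2 change 1.58 ± 0.045, limma adjusted p = 6.11e-07), and DSP8 Ob_17148 had 8.5 and 6.13 FPKM in the control and 17.0 and 18.8 FPKM after chilling, a ratio of 2.44. MKP1 (Ob_33786), the phosphatase that restrains MPK3 and MPK6 in *Arabidopsis*, was chosen for mention after its values were seen and had 9.65 and 10.8 FPKM in the control and 11.97 and 11.6 FPKM after chilling (limma adjusted p = 0.116). A scarcer MKP1 unigene (Ob_32386) had 3.36 and 3.9 FPKM in the control and 6.52 and 6.16 FPKM after chilling, a ratio of 1.75 (limma adjusted p = 0.0047), higher in both chilling libraries but under 2-fold. Neither was called.

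Of 17 tested unigenes for known targets of these kinases, 2 rose and 4 fell, with a median log2 change of 0.19 (3 and 2 with TPM rescaling). Both rises were of ACC synthase, the ethylene-producing enzyme that MPK3 and MPK6 phosphorylate in *Arabidopsis*. ACS1 (Ob_34134) had 5.45 and 5.77 FPKM in the control and 58.7 and 59.5 FPKM after chilling, a ratio of 10.5 (log2 change 3.18 ± 0.063, limma adjusted p = 1.14e-07), and ACS1 Ob_34135 had 5.96 and 6.34 FPKM in the control and 13.97 and 12.3 FPKM after chilling, a ratio of 2.14. The falls were of ion channels. The potassium channel AKT1 (Ob_35337), a target of CIPK23, had 81.1 and 79.3 FPKM in the control and 37.2 and 36.1 FPKM after chilling, 2.19-fold lower (log2 change -1.11 ± 0.038, limma adjusted p = 1.31e-06), which was under 2-fold with TPM rescaling. Scarcer tested AKT1 unigenes had higher means after chilling and were not called. Their ratios were 1.99 (Ob_22652), 1.72 (Ob_05001) and 1.46 (Ob_11093). The anion channel SLAH3 (Ob_21659) had 3.9 and 4.63 FPKM in the control and 0.17 and 0.41 FPKM after chilling, 14.7-fold lower (log2 change -2.03 ± 0.20, limma adjusted p = 0.000201), and a second SLAH3 unigene and SLAC1 made up the other falls, of which that of SLAC1 was lost with TPM rescaling. When single libraries were left out, 1 target was called higher and 1 lower each time.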

How the data were processed

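Leaf RNA of 2 control and 2 chilling libraries was sequenced. The authors trimmed the reads, pooled and assembled them de novo with Trinity, kept the longest isoform per gene as a unigene, and deposited FPKM values computed with RSEM, rounded to 2 decimals. The FPKM do not give the read depth behind a value; the FPKM worth of a single read, relative to control 1, was 0.982 in control 2, 1.02 in chilling 1 and 1.00 in chilling 2. The deposited annotation gives other values, the expectation values of BLASTX matches in Swiss-Prot and the names of the best matches in nr. The authors' lists of changed genes hold log2 fold changes, p-values and FDR, which were not used, and 8 columns of per-sample values in them were left out because they repeat the FPKM.

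FPKM were compared on log2(FPKM + 1) with limma 3.58.1 (intensity trend) in R 4.3.3, over unigenes with a mean of at least 1 FPKM. P-values were adjusted by Benjamini-Hochberg over all tested unigenes, and calls needed 0.01 or less there together with a 2-fold difference of mean FPKM. A count model was not applied, because FPKM are not counts. With 2 samples per treatment, p-values reflect the spread between these samples and no wider variation. For each unigene, limma moderates that spread by the trend over all tested unigenes (4.41 prior and 2 residual degrees of freedom). Statements that treatments did not overlap describe the printed values, and the share of all unigenes without overlap was not counted. Same-numbered libraries did not deviate together (r = 0.0076 over 33036 unigenes), and nothing in the sources pairs them.

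Named were, in each family, the called members, at most 8 each way by size of log2 change, and the 3 most abundant among those not called. In each pathway list these were up to 2 per direction and the most abundant unigene. Unigenes that share a Swiss-Prot protein with a named member could be named beside it, and those that are were picked with their values known. Also named were those listed at 0 in both libraries of one treatment and at 1 FPKM or more in both of the other. Members, lists and rules were chosen with earlier results of these data known. Alternatives were no filter, a mean of at least 5 FPKM, a pseudocount of 0.1, TPM and median-ratio rescaling, a replicate block, no trend, an adjusted p of 0.05, a 2-fold change on the log2 scale, leaving out each library, counting each Swiss-Prot protein once, and leaving out grass and non-plant matches. Tables were handled with Python 3.11.15 and pandas 2.3.3, and figures drawn with matplotlib 3.10.9.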

Additional observations from a re-analysis of the deposited data

How the results depend on the processing

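The counts of called members rested on low unigenes and on having both replicates. With a mean of at least 5 FPKM, 15 members were called higher and 10 lower, and 2035 and 2193 of all unigenes, because 20 of the 45 called members were no longer tested. Counting each Swiss-Prot protein once gave 14 and 10. Leaving out single libraries gave 9 to 12 members higher and 7 to 9 lower, and 1242 to 1575 and 1586 to 1686 of all unigenes, with fewer samples in each fit. The same 45 calls were all kept after median-ratio rescaling, 42 with TPM (7 more were added), 40 with a pseudocount of 0.1, 38 with a 2-fold change on the log2 scale, 37 without the trend and 35 without a filter. With the replicate number as a block, 24 members were called higher and 15 lower, 3576 and 4102 of all unigenes, and 39 of 45 calls were kept; the libraries share only a number. Changes near 0 and not called turned positive. CBL3 (Ob_20461) went to 0.18 with TPM and 0.011 with the median ratio, and spanned -0.043 to 0.040 without single libraries. MKK6 (Ob_23970) went to 0.0093 with TPM, CNGC1 (Ob_32106) to 0.13 with TPM, and MKK3 (Ob_32815) to 0.13 with TPM, spanning -0.14 to 0.048 without single libraries. The depth behind single values is unknown, and values listed at 0 limit no ratio.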
